A study of Mus musculus with 6 samples.

Results

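The genes described here are 40 products of adult mouse liver, kidney and lung that were picked because reads of them were seen in the pair of libraries labelled D7, and 39 of them were in the table of 19489 genes. *Fabp1* was not analysed here. The list is named for secreted proteins, but 6 of the 39 genes encode intracellular enzymes of the hepatocyte. Messenger RNA was sequenced from 6 libraries of mouse embryonic stem cells (ESCs). Con ESCs carried the empty vector pLch3.7 and have the genotype label wild type, and *Dppa3* OE ESCs carried the same vector with *Dppa3* driven by the CAG promoter. The methods describe transiently transfected cells as well as stable lines from picked colonies, each selected with puromycin, and do not state which were sequenced. The medium was DMEM with 15% serum and LIF. Con-1, Con-2, OE-1 and OE-2 have no D7 label, and Con-D7 and OE-D7 are the third library of each group. What D7 stands for is not given in the sources used here, and the text does not name which ESC line was sequenced. Each of the 6 libraries has a different substrain in its label. The substrain numbers rise in sample order, which looks like automatic filling of a column, so these labels may not describe the cells and were not used. Whether the libraries came from separate cultures is not stated, so a p-value covers only how far these libraries spread. Estimated counts ranged from 17408954 to 18176939 per library. *Dppa3* stood at 6.09 and 3.89 FPKM (a level scaled for transcript length and library depth) in Con-1 and Con-2 and at 279 and 279 FPKM in OE-1 and OE-2. In the D7 pair it stood at 26.2 FPKM in Con-D7 and at 131 FPKM in OE-D7, so the overexpression label held in each pair and the gap was narrower in the D7 pair. Pluripotency genes were expressed in all 6 libraries. The summed FPKM of a list of 10 was 4187 to 4889 in the libraries without the D7 label and 3998 and 3825 in Con-D7 and OE-D7, and without *Dppa5a* it was 2949 to 3188 and then 1915 and 1557.

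The adult hepatocyte secretes most plasma proteins, of which albumin (*Alb*) is the most abundant. Albumin and alpha-fetoprotein (*Afp*) are neighbouring genes of one family: *Afp* is made by the yolk sac endoderm and the fetal liver and is shut down after birth, whereas *Alb* stays on in the adult. Transthyretin (*Ttr*) is made by the visceral endoderm as well as by the liver. The visceral endoderm also makes other proteins of the list, among them transferrin (*Trf*), retinol binding protein (*Rbp4*) and apolipoproteins such as *Apoa1* and *Apob*, with *Afp* and *Ttr* as its best known markers. The major urinary proteins (*Mup* genes) are small lipocalins of the adult liver, higher in males, and the serpins of the *Serpina1* cluster encode alpha-1-antitrypsins. *Kap* encodes an androgen-regulated protein of the proximal tubule of the kidney. *Scgb1a1* marks the club cells of the airway and *Sftpc* the alveolar type II cells of the lung.

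Stretches upstream of the transcription start are shown for genes that the results below turn on: *Alb* and *Afp* as the adult and fetal members of the family, *Serpina1c* and *Serpina1e* as near-copies, and *Mup10* and *Kap* as genes with no reads in the libraries without the D7 label. Each is the 150 bases before the start in RefSeq (GRCm38.p6), 5′ to 3′ on the gene's own strand. Capitals mark CCAAT and TATAAA, the letters of the CCAAT box and the TATA box of promoters, or their reverse complements ATTGG and TTTATA.
Alb (chr5:90460720-90460869, plus strand): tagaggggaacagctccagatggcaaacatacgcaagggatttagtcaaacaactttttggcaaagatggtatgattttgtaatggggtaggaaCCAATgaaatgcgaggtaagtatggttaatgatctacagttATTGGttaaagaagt
Afp (chr5:90490564-90490713, plus strand): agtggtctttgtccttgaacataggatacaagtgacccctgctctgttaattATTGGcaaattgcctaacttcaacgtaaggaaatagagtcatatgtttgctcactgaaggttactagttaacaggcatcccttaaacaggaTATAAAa
Serpina1c (chr12:103904951-103905100, minus strand): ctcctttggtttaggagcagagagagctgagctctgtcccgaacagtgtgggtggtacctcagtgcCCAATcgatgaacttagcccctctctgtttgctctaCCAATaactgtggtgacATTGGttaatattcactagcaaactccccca
Serpina1e (chr12:103956898-103957047, minus strand): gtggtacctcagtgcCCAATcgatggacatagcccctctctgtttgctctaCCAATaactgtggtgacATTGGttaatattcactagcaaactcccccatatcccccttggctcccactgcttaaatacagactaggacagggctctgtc
Mup10 (chr4:60582156-60582305, minus strand): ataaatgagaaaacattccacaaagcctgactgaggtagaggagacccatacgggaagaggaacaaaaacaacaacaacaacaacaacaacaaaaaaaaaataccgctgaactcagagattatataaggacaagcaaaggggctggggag
Kap (chr6:133853668-133853817, minus strand): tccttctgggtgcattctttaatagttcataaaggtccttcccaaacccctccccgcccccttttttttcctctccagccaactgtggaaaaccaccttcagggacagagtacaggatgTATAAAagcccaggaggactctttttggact
RefSeq windows were found for 31 of the 39 genes. CCAAT, on either strand, lay in the windows of 13 of the 31 genes, against 24.5% of 32851 mouse promoter windows of the same length. These were the 5 *Serpina1* genes, which share their sequence there and are not separate instances, and *Afp*, *Alb*, *Ambp*, *Apoa2*, *Cyp2e1*, *Hpx*, *Mup7* and *Tat*. TATAAA, on either strand, lay in those of 6 genes (*Afp*, *Apob*, *Cyp2c29*, *Cyp2e1*, *Kap* and *Rbp4*), against 7.57% of all windows. These counts describe the letters and say nothing of binding. The coding sequences of the *Serpina1* genes were 91.4% to 96.7% identical over 10 pairs, and those of *Mup7*, *Mup10*, *Mup15* and *Mup19* were 98.7% to 99.4% identical. Reads of such near-copies can be split between genes by the counting, so the single-gene values of these families are uncertain and their sums are given as well.

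The listed genes had reads in both D7 libraries, and most of them had at most 20 reads in the other 4 together. The summed level of the 39 genes was 19.9 to 28.5 FPKM in the other 4 libraries and 135 and 175 FPKM in Con-D7 and OE-D7. *Trf* alone gave 48.8% to 61.2% of the lower sums, and without it the 38 genes summed to 8.19 to 11.1 FPKM and to 127 and 166 FPKM. On read counts scaled for depth, both D7 libraries lay above all of the other 4 in 37 of the 39 genes, where 25.9% of all genes with at least 10 reads did so. The exceptions were *Trf* and *Fgg*. The genes were picked for their reads in the D7 libraries, so these counts describe the choice and no test of the D7 libraries against the others is given for them. By reads in the other 4 libraries together, 13 genes had 0, 16 had 1 to 20 and 10 had more than 20. Against a floor of 3 reads over the 4 libraries, the 13 genes at 0 were at least 18.2-fold (*Apoh*) to at least 266-fold (*Mup7*) higher in the D7 libraries. Over all 39 genes the median fold, with those bounds, was 21.9. At the other end, the fold of D7 over the other 4 was 0.602 for *Trf*, 1.26 for *Rbp4*, 1.59 for *Ahsg* and 2.16 for *Fgg*, which shows how little some of the listed genes moved. Intervals and floors cover counting error only. In RNA from whole cultures, a few cells with much of a transcript and many cells with little of it cannot be told apart. Values below are FPKM in the order Con-1, Con-2, OE-1, OE-2, then Con-D7 and OE-D7.

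**Figure D1:**
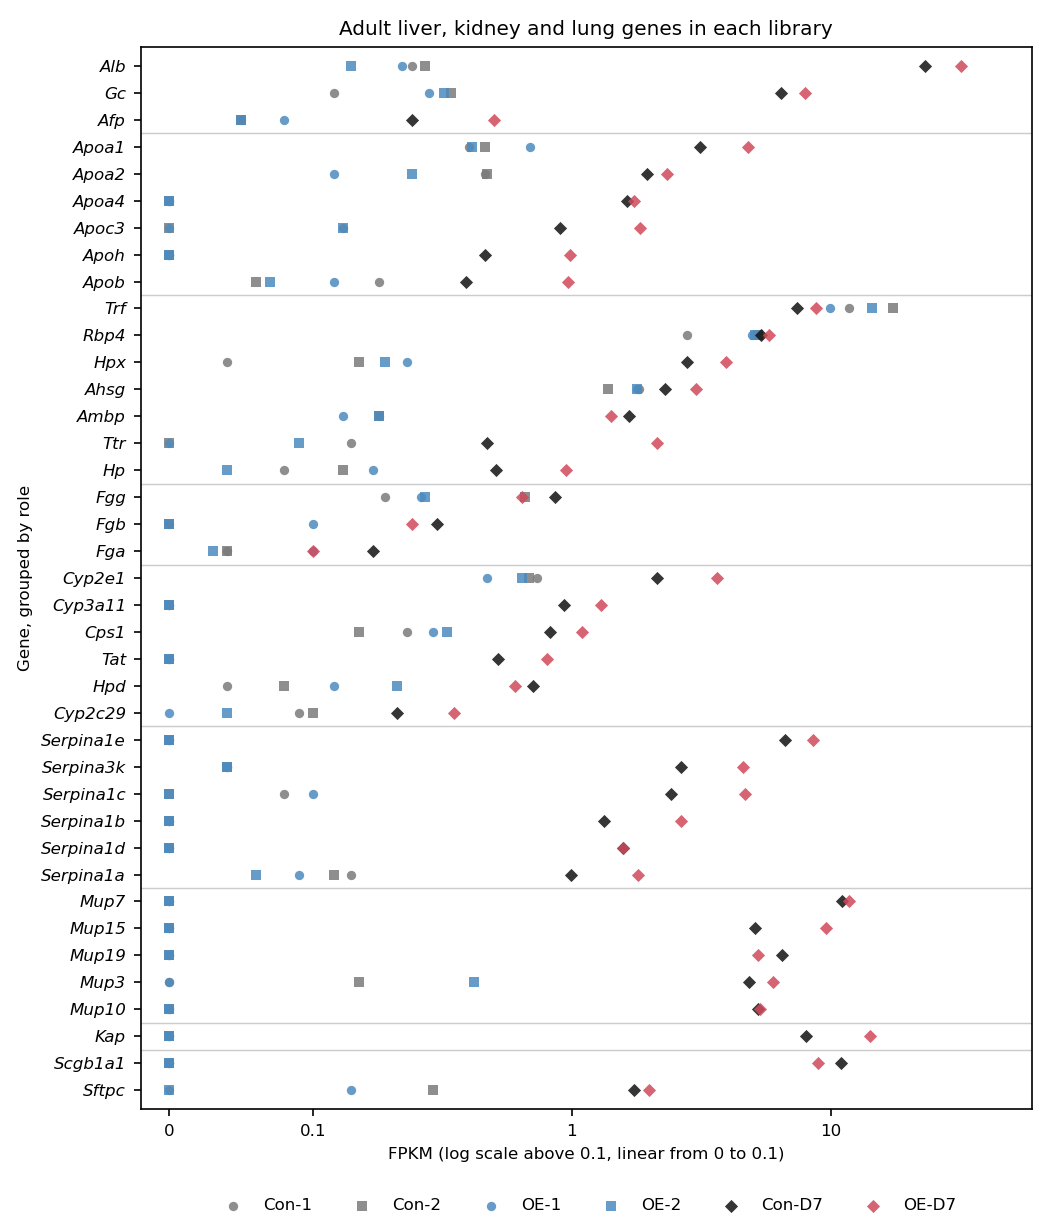
FPKM of each of the 39 genes (rows, grouped by role) in the 6 libraries, on an axis that is linear from 0 to 0.1 and logarithmic above. The black and red diamonds (Con-D7 and OE-D7) lie right of the circles and squares of the other 4 libraries in every row but *Trf*, *Fgg* and, by a tie of OE-1 with OE-D7 at 0.1 FPKM, *Fga*.

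In the albumin family, *Alb* was the highest of all 39 genes in the D7 libraries. It stood at 0.24, 0.27, 0.22 and 0.14 FPKM, then at 23.1 and 31.8 FPKM. These were 9, 10, 8 and 5 reads against 848 and 1142, and the scaled counts differed 126-fold (95% counting interval 88.6 to 184). *Gc*, the vitamin D binding protein, had 0.12, 0.34, 0.28 and 0.32 FPKM, then 6.44 and 7.95 FPKM. *Afp* stood at 0.05, 0.05, 0.08 and 0.05 FPKM, then at 0.24 and 0.5 FPKM, from 9 and 18 reads in the D7 libraries. All 3 genes were higher in both D7 libraries, and *Afp* was by far the lowest of them.

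The carriers and binding proteins were the least uniform group. *Ttr*, which carries thyroid hormone and retinol binding protein, stood at 0.14, 0, 0 and 0.09 FPKM, then at 0.47 and 2.14 FPKM. *Hpx*, the haem scavenger hemopexin, had 0.04, 0.15, 0.23 and 0.19 FPKM, then 2.79 and 3.95 FPKM. *Ambp*, the precursor of alpha-1-microglobulin and bikunin, had 0.18, 0.18, 0.13 and 0.18 FPKM, then 1.66 and 1.42 FPKM. In these 3 genes the groups of libraries did not overlap. Genes of the same group with a level of their own in the libraries without the D7 label differed less. *Trf*, the iron carrier transferrin, stood at 11.7, 17.4, 9.97 and 14.4 FPKM, then at 7.41 and 8.8 FPKM, so both D7 libraries were the lowest. *Rbp4*, the plasma carrier of retinol, had 2.78, 5.26, 4.95 and 5.08 FPKM, then 5.38 and 5.76 FPKM, with the D7 libraries barely above Con-2. *Ahsg*, the fetuin-A gene, had 1.81, 1.38, 1.78 and 1.78 FPKM, then 2.28 and 3.02 FPKM. *Hp*, which encodes the haemoglobin-binding haptoglobin, was at 0.04 to 0.17 FPKM and then at 0.51 and 0.95 FPKM.

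Of the 6 apolipoprotein genes, which encode protein parts of lipoprotein particles, *Apoa1* was the highest. It stood at 0.4, 0.46, 0.69 and 0.41 FPKM, then at 3.13 and 4.81 FPKM. *Apoa2* had 0.46, 0.47, 0.12 and 0.24 FPKM, then 1.95 and 2.34 FPKM. *Apoa4*, a gene of intestine and liver, had no read in any library without the D7 label and 1.63 and 1.73 FPKM in the D7 libraries. The other apolipoproteins (*Apob*, *Apoc3* and *Apoh*) were at 0 to 0.18 FPKM without the label and at 0.39 to 1.84 FPKM with it, so all 6 genes of this group were higher in both D7 libraries. The 3 fibrinogen chains stayed low. Their summed FPKM was 0.23 to 0.7 and then 1.33 and 0.98, and *Fgg* in OE-D7 (0.64 FPKM) lay below Con-2 (0.66 FPKM).

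Among the intracellular enzymes, *Cyp2e1*, an ethanol-oxidising cytochrome P450, was the highest, at 0.73, 0.68, 0.47 and 0.64 FPKM and then 2.14 and 3.63 FPKM. *Cyp3a11*, a drug-metabolising P450, had no read in the libraries without the D7 label and 0.93 and 1.29 FPKM with it. *Tat*, the tyrosine aminotransferase that comes on around birth, also had no read there, and had 0.52 and 0.8 FPKM in the D7 libraries. All 6 enzymes were higher in both D7 libraries. *Cps1*, the first enzyme of the urea cycle, *Hpd*, an enzyme of tyrosine breakdown, and *Cyp2c29* were at 0 to 0.33 FPKM without the label and at 0.21 to 1.09 FPKM with it.

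The serpins summed to 0.1 to 0.26 FPKM in the other 4 libraries and to 15.6 and 23.8 FPKM in Con-D7 and OE-D7. *Serpina1e* was the highest, at 0 in all 4 and then 6.68 and 8.57 FPKM. *Serpina1c* had 0.08, 0, 0.1 and 0 FPKM, then 2.41 and 4.65 FPKM, and *Serpina3k*, an alpha-1-antichymotrypsin relative, had 0.04 FPKM in each of the 4, then 2.63 and 4.58 FPKM. All 6 genes of the group were higher in both D7 libraries. *Serpina1b* and *Serpina1d* had no read without the D7 label and stood at 1.33 and 2.63 FPKM and at 1.58 and 1.58 FPKM with it. *Serpina1a* had 0.14, 0.12, 0.09 and 0.06 FPKM, then 0.99 and 1.8 FPKM. The order within the *Serpina1* cluster was led by *Serpina1e* in both D7 libraries, at 6.75 times (4.55 to 10.3) and 4.76 times (3.51 to 6.55) the FPKM of *Serpina1a*.

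The 5 listed *Mup* genes were at 0 to 0.42 summed FPKM in the other 4 libraries and at 32.7 and 38 FPKM in the D7 libraries, next to 29.8 and 40.3 FPKM for the albumin family. *Mup7*, *Mup10*, *Mup15* and *Mup19* had no read without the D7 label. *Mup7* then had 11.1 and 11.8 FPKM, *Mup15* had 5.08 and 9.6 FPKM, and *Mup19* had 6.5 and 5.26 FPKM. *Mup10* stood at 5.22 and 5.32 FPKM, and *Mup3* at 0, 0.15, 0 and 0.42 FPKM and then at 4.84 and 5.98 FPKM. Both D7 libraries were above all others for each of the 5. Over all 23 *Mup* genes and pseudogenes of the table, which does not depend on how reads of near-copies were split among them, the sum was 3.06 to 8.2 FPKM without the D7 label and 69.8 and 96.4 FPKM with it. Most of the lower sums was *Mup6*, at 6.87, 2.3, 4.57 and 2.56 FPKM and then 7.02 and 7.2 FPKM, which was singled out after its values were seen.

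The kidney and lung genes were as far apart as those of the liver. *Kap* had no read in the 4 libraries without the D7 label and 8.02 and 14.1 FPKM in Con-D7 and OE-D7, from 83 and 143 reads. *Scgb1a1* also had none, then 11 and 8.9 FPKM. *Sftpc* stood at 0, 0.29, 0.14 and 0 FPKM, then at 1.73 and 1.99 FPKM. For all 3 genes the D7 libraries lay above the others without overlap.

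**Figure D2:**
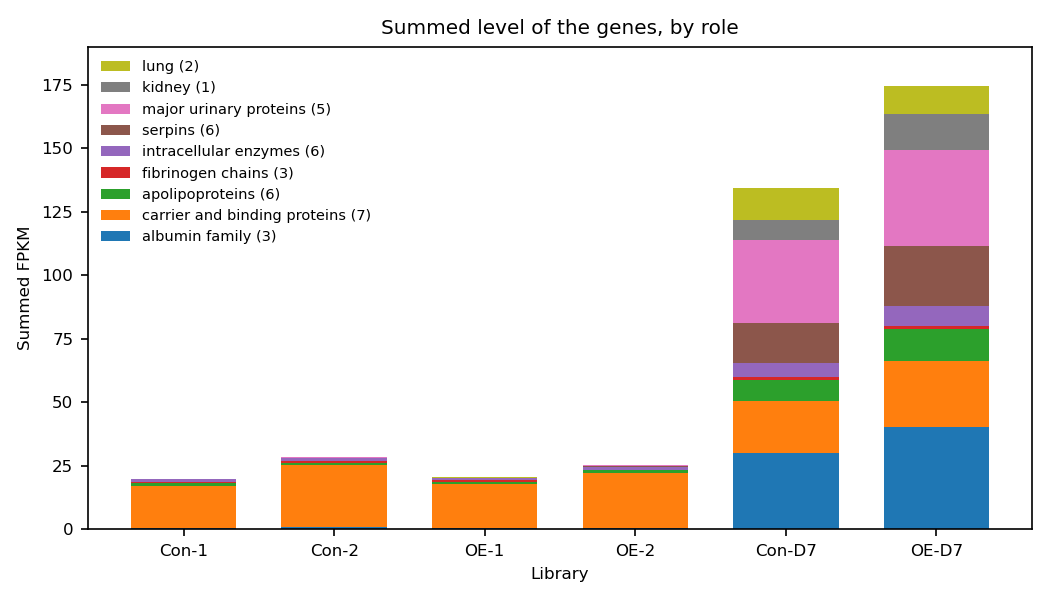
Summed FPKM of the 39 genes in each library, stacked by role, with the number of genes in brackets. The other 4 bars reach 19.9 to 28.5 FPKM and are mostly carriers, and the D7 bars reach 135 and 175 FPKM with the albumin family, the *Mup* genes and the serpins as large parts.

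The proportions among these genes address whether the reads resemble adult organ RNA or embryonic endoderm. Within a library, *Alb* exceeded *Afp* 96.4-fold (95% counting interval 50.5 to 211) in Con-D7 and 63.7-fold (40.1 to 108) in OE-D7, on FPKM. *Afp* took 0.274% and 0.413% of the reads of the 39 genes in Con-D7 and OE-D7, and 0.178% and 0.287% of their summed FPKM, where *Alb* took 17.2% and 18.2%. The 39 genes are products of adult organs picked for their D7 reads, so a small share of *Afp* follows in part from that choice. *Alb* exceeded *Ttr* 49.2-fold (26.6 to 103) and 14.9-fold (11 to 20.5), so the share of *Ttr* was larger in OE-D7. *Alb*, *Serpina1e* and each of the 5 listed *Mup* genes were above *Afp* and *Ttr* in both D7 libraries. Other adult genes were not: in OE-D7 *Ttr* (2.14 FPKM) was above *Cyp3a11* (1.29 FPKM), *Tat* (0.8 FPKM) and *Serpina1a* (1.8 FPKM). No reference sample of adult liver or of endoderm was at hand to set the ratios against. The intervals of the D7 libraries overlapped for *Alb* to *Afp* but not for *Alb* to *Ttr*. Other ratios had intervals that overlapped as well. *Alb* exceeded *Apoa1* 7.39-fold (5.61 to 9.92) and 6.62-fold (5.28 to 8.4), *Scgb1a1* exceeded *Sftpc* 6.36-fold (4.01 to 10.5) and 4.47-fold (2.83 to 7.27), and *Kap* exceeded the renal phosphate transporter gene *Slc34a1* 6.27-fold (4.38 to 9.04) and 5.79-fold (4.4 to 7.67). Over the 39 genes, log2(FPKM + 0.5) in Con-D7 and OE-D7 had a Pearson correlation of 0.959, a description over genes, which share libraries, depth and length scaling.

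Genes outside the 39 were taken from fixed lists and tested with edgeR's quasi-likelihood test (Benjamini-Hochberg adjusted p under 0.05), which called 6.77% of 13809 genes higher and 3.06% lower in the D7 libraries. The deviations of Con-D7 and OE-D7 from their group means correlated at 0.889, which the shared D7 label alone could give. Whether they are 1 pair is not known. The test counts as 2 libraries what may be 1 pair, and its p-values may be too small. Without the filter on low values described next, it called 5.95% of 19423 genes higher and 2.28% lower. Genes outside the 4 most abundant of a list are named below because they were called, after their values were seen. The filter on low values kept a mean of at least 0.5 FPKM over all 6 libraries. Genes near 0 in the other 4 libraries, such as *Hamp*, *Mup20* and *Slc34a1* below, passed it only through their D7 levels. Such genes could hardly be called lower. Of 48 other plasma protein genes, 16 passed the filter and 1 was called higher and 0 lower, with a median log2 fold change of -0.19 against -0.03 over all genes. The gene called was *Hamp*, the iron hormone hepcidin (0 to 0.24 FPKM, then 1.03 and 5.67 FPKM). Without the filter all 48 were tested and 10 were called higher and 0 lower, beside the 5.95% and 2.28% above, with a median log2 fold change of 1.43 against -0.01 over all genes. Among them were *Azgp1* and *Mug1*, picked out after their values were seen, both with no read in the other 4 libraries and at 0.6 and 0.88 FPKM and 0.36 and 0.65 FPKM in the D7 pair. Of the 4 most abundant genes of the list, *Hamp* among them, the other 3 did not pass the test. *Apoc1* had 21.3 to 36.3 FPKM and then 38.4 and 53.4 FPKM, *Fetub* had 8.27 to 17.7 FPKM and then 7.77 and 6.87 FPKM, and *Apom* had 2.07 to 3.47 FPKM and then 1.79 and 1.75 FPKM.

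Among 45 other hepatocyte enzymes and transporters, 11 passed the filter, 2 were called higher (*Fbp1* and *Adh1*) and 2 lower (*Slc10a1* and *Hal*), with a median log2 fold change of 0.24. Without the filter 8 of 45 were higher and 2 lower, again beside 5.95% and 2.28% of all genes, with a median log2 fold change of 1.85. *Fbp1*, a gluconeogenic enzyme, rose from 0.19 to 0.38 FPKM to 1.49 and 1.76 FPKM (log2 fold change 2.43 ± 0.40 SE, adjusted p = 0.0243, edgeR). *Slc10a1*, the bile acid transporter of the hepatocyte, moved the opposite way, from 4.4 to 4.61 FPKM to 1.08 and 0.98 FPKM (log2 fold change -2.12 ± 0.24 SE, adjusted p = 0.0105, edgeR). The 4 most abundant genes of the list (*Ass1*, *Acaa1b*, *Aldh1l1* and *Cyp27a1*) did not pass the test, with *Ass1* at 311 to 359 FPKM and then 232 and 256 FPKM. Of 10 male-biased liver genes, 2 passed the filter and *Mup20*, another *Mup* gene, was called higher (0 to 0.13 FPKM, then 6.19 and 9.17 FPKM). Of 9 female-biased liver genes, 1 passed the filter and 0 were called, and 0 were called without the filter.

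Genes of the transcription factors that act in hepatocytes were tested in the same way. Of 17 such genes, 8 passed the filter. Of these, 1 was called higher and 0 lower, beside 6.77% and 3.06% of all genes. The median log2 fold change was -0.37 against -0.03 over all genes. The gene called was *Cebpa*, at 0.81 to 1.3 FPKM and then 3.14 and 3.65 FPKM (log2 fold change 1.68 ± 0.22 SE, adjusted p = 0.0147, edgeR). Without the filter *Prox1* was called as well, 2 of 17 in all, beside 5.95% of all genes called higher. Both D7 libraries lay above the other 4 in 5 of the 16 factors with at least 10 reads, beside 25.9% of all genes. *Tbx3* stood at 48.6 to 67 FPKM and then at 38.2 and 43.1 FPKM, *Nr5a2* at 17.5 to 32.1 FPKM and then at 10.1 and 10.2 FPKM, and *Hhex* at 3.28 to 4.03 FPKM and then at 3.41 and 3.87 FPKM, and none of the 3 passed the test. *Hnf4a*, a nuclear receptor named here after its values were seen, had 0.68 to 2.42 FPKM and then 1.37 and 1.2 FPKM (adjusted p = 0.812, edgeR).

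**Figure D3:**
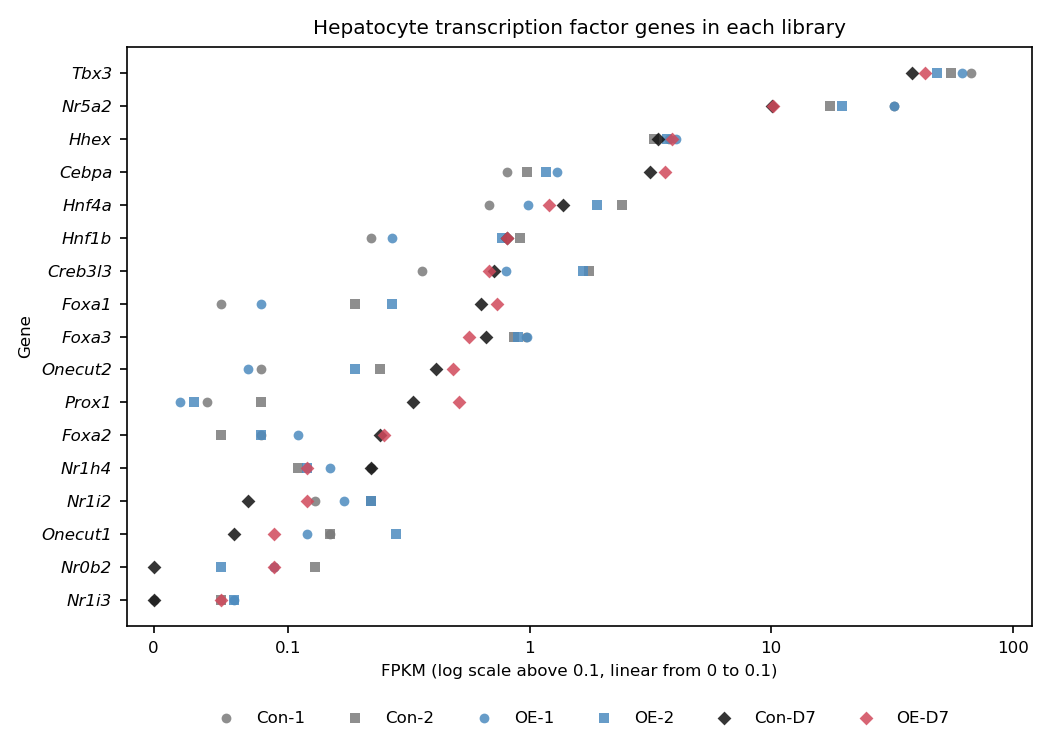
FPKM of the 17 hepatocyte transcription factor genes (rows, ordered by mean D7 level) in the 6 libraries, on an axis linear from 0 to 0.1 and logarithmic above. For most factors the diamonds of the D7 libraries lie among or below the points of the other 4, and *Cebpa*, *Prox1*, *Foxa1*, *Foxa2* and *Onecut2* have both diamonds to the right.

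Part of the endoderm and fetal liver genes were higher in the D7 libraries. Of 24 extraembryonic endoderm genes, 17 passed the filter, 5 were called higher (*Lamb1*, *Col4a1*, *Lrp2*, *Dab2* and *Gata4*) and 1 lower (*Lama1*). Over all genes 6.77% were called higher and 3.06% lower. The median log2 fold change of the list was -0.04 against -0.03 over all genes. Without the filter *Thbd* was called higher as well, so 6 of 24 were higher and 1 lower, beside 5.95% and 2.28% of all genes. *Lamb1* and *Col4a1*, genes of basement membrane proteins, stood at 16.9 to 23.3 FPKM and then at 49.2 and 56.6 FPKM, and at 5.54 to 9.75 FPKM and then at 27.8 and 51.4 FPKM. *Apoe* and *Sparc*, the most abundant genes of the list, were not called. Of the 5 fetal liver genes other than *Afp*, 4 passed the filter and 2 were called higher, beside 6.77% of all genes. *Igf2*, an imprinted fetal growth factor, stood at 0.97 to 1.49 FPKM and then at 42.8 and 91.4 FPKM (log2 fold change 5.79 ± 0.37 SE, adjusted p = 0.00358, edgeR). *Dlk1*, an imprinted gene of fetal hepatoblasts and of many mesenchymal cells, stood at 0.76 to 2.85 FPKM and then at 25 and 79.4 FPKM (log2 fold change 4.60 ± 0.30 SE, adjusted p = 0.00361, edgeR). *Gpc3* (14.9 to 35.2 FPKM, then 50 and 61.5 FPKM) and *Spink1* did not pass the test. *Igf2* and *Dlk1* are expressed in many embryonic tissues, and they rose in the libraries that also held the reads of *Alb*.

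Other kidney and lung genes were called in small numbers. Of 25 kidney genes, 4 passed the filter and 2 were called higher, *Slc34a1* (0 to 0.03 FPKM, then 1.28 and 2.44 FPKM) and the renin gene *Ren1* (0.11 to 0.32 FPKM, then 0.83 and 1.71 FPKM). Without the filter *Acsm2* and *Umod* were called too, 4 of 25 in all. Both D7 libraries lay above the other 4 in 17 of the 24 kidney genes with at least 10 reads, beside 25.9% of all genes. By this measure it was 23 of 40 plasma protein, 20 of 32 enzyme, 10 of 24 endoderm and 5 of 11 lung genes. For immune genes it was 5 of 11, for pancreas 3 of 8, for muscle 5 of 15 and for brain 2 of 10. Stomach and intestine gave 1 of 6, adipose and salivary gland 1 of 6 and red cell 0 of 7. Of 13 lung genes, 7 passed the filter and *Abca3*, the lipid transporter of lamellar bodies, was called higher (2.82 to 4.41 FPKM, then 6.49 and 9.11 FPKM). DESeq2 called 1 lung gene higher and 1 lower, and limma on log2(FPKM + 0.5) called 0 higher and 0 lower. Without the filter *Sftpb* and *Slc34a2*, both of alveolar type II cells, were called as well. The median log2 fold change of the lung list was -1.105 with the filter and 0.55 without it, against -0.03 and -0.01 over all genes. *Napsa*, among the 4 most abundant of the list, was lower in the D7 libraries (4.8 to 8.32 FPKM, then 3.53 and 2.54 FPKM). So was *Sftpd*, named after its values were seen (0.43 to 0.97 FPKM, then 0.17 and 0.22 FPKM). Neither passed the test. With the filter 0 genes were called of the pancreas (5 tested), stomach and intestine (4), red cell (2), immune (5) and brain (6) lists. The same held for the adipose and salivary gland list (2 tested), and 0 genes of a male tract list passed the filter. With 6.77% of all genes called higher, so few tested genes leave little room for a call. Of the 17 muscle genes 12 passed the filter, 2 were called higher and 1 lower. *Acta1*, the actin of skeletal muscle, stood at 0.12 to 0.35 FPKM and then at 20.2 and 27.9 FPKM (log2 fold change 6.60 ± 0.39 SE, adjusted p = 0.00278, edgeR), which were levels near that of *Alb*. *Tnnt3*, the fast skeletal troponin T, stood at 0.13 to 0.75 FPKM and then at 5.53 and 9.87 FPKM, and *Mylpf*, a myosin light chain gene, was lower, at 99.1 to 131 FPKM and then 56.3 and 80 FPKM. Without the filter, *Pnlip* (pancreas), *Lyz2* (immune), *Mbp* (brain) and 3 muscle genes were called higher. Summed FPKM of the red cell list was 2.17 to 4.12 and then 5.18 and 7.27, and of the immune list 14.2 to 23.3 and then 25.2 and 30. Their part in the levels of the 39 genes was not tested. Of the 10 pluripotency genes 0 were called higher and 4 lower (*Pou5f1*, *Utf1*, *Esrrb* and *Klf4*). The calls of this comparison rest on both D7 libraries. Without OE-D7 edgeR called 0 of all genes (1252 had an unadjusted p under 0.05), and without Con-D7 28 were called, of which 1 was of the fetal liver list and 0 of the plasma protein, enzyme, factor, endoderm, kidney and lung lists. Without OE-1 the calls higher went to 0 plasma protein, 0 enzyme, 1 kidney and 0 lung genes, and without OE-2 to 0 plasma protein, 0 enzyme, 0 factor, 3 endoderm, 1 kidney and 0 lung genes. Without Con-2 there were 3 plasma protein genes, and without Con-1 there was 1 enzyme gene.

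Con-D7 and OE-D7 were compared next, since this pair differs in *Dppa3* and the genes were not picked for that difference. With 1 library on each side there is no replicate check and no p-value. The median ratio of OE-D7 to Con-D7 over the 39 genes was 1.31, or 0.39 on the log2 scale, against a median log2 ratio of 0.01 over all genes. Of the 39 genes, 30 were higher in OE-D7 and 9 were lower, and ratios ran from 0.732 (*Fgg*) to 4.51 (*Ttr*). At least 2-fold higher in OE-D7 were 5 of 39 (*Ttr*, *Apoh*, *Apob*, *Apoc3* and *Afp*), beside 3.88% of 16169 genes with at least 10 reads, and 0 of 39 were at least 2-fold lower, beside 1.79%. *Apoh*, *Apoc3* and *Afp* had only 24 to 27 reads over the pair. The share depends on depth: it was 628 of 16169 genes with at least 10 reads and 268 of 13742 with at least 50. The 95% counting interval lay above 1 for 15 genes and below 1 for 0. This count was not made over all genes, so it has no background share beside it. The intervals cover counting error only, and the 15 include near-copies of the *Serpina1* and *Mup* families. *Apoc3* and *Afp*, both at 2-fold, had intervals of 0.809 to 5.4 and of 0.854 to 5.06 that include 1. *Ttr* was 4.51-fold (2.24 to 10) and *Apob* 2.42-fold (1.9 to 3.09) higher in OE-D7. *Alb* was 1.35-fold (1.23 to 1.48) and *Kap* 1.72-fold (1.31 to 2.29) higher, and *Scgb1a1* was at 0.792 (0.567 to 1.1). The summed reads of all 23 *Mup* genes and pseudogenes were 1.36-fold (1.26 to 1.48) higher, and the ratios of single *Mup* genes are uncertain.

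**Figure D4:**
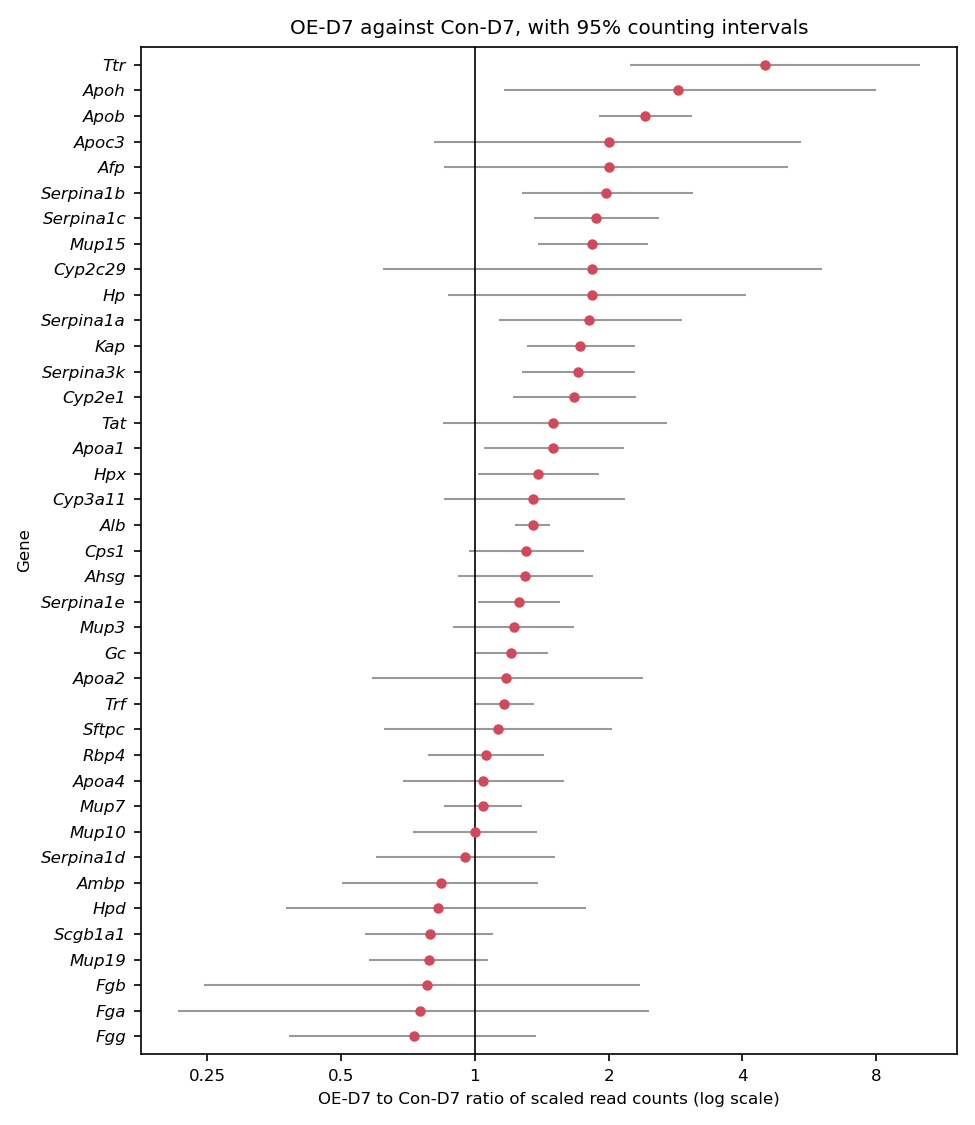
Ratio of OE-D7 to Con-D7 of scaled read counts for each of the 39 genes (points, log axis) with 95% counting intervals (bars), and a vertical line at 1. Most points lie right of the line, from 0.732 for *Fgg* to 4.51 for *Ttr*, and no interval lies wholly left of it.

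Comparison of OE with Con in libraries 1 and 2 asked whether *Dppa3* altered these genes where no D7 label applies. Only 4 of the 39 genes passed the filter there, and 0 were called, where edgeR called 0% of 13494 genes (62 had an unadjusted p under 0.05, DESeq2 called 2 and limma 0). Libraries of the same number deviated together, so the fit with the replicate number as a block is given too: it called 0.889% of the 13494 genes and again 0 of the 4. *Trf* was lower in OE in both pairs, with a log2 fold change of -0.30 ± 0.27 SE (adjusted p = 1, edgeR) and of -0.30 ± 0.12 SE with the block (adjusted p = 0.494, unadjusted 0.0241). The log2 fold changes of *Rbp4*, *Ahsg* and *Cyp2e1* were 0.30, 0.17 and -0.36, each within 1 SE of 0. Their values in each library are those given above, and OE and Con overlapped in *Trf*, *Rbp4* and *Ahsg* but not in *Cyp2e1*. *Cyp2e1* had only 14.6 to 23.2 reads in each of these libraries. Overlap was not counted over all genes, so it has no background share beside it and singles out no gene. The other 35 genes had a mean under 0.5 FPKM in these libraries and did not enter this fit. Without the filter 26 of the 39 genes were tested and 0 were called. With all 6 libraries in one fit and the D7 label as a covariate, 26 of the 39 genes passed the filter, most of them through their D7 levels, and 0 were called, where edgeR called 0% of 13809 genes (179 had an unadjusted p under 0.05, DESeq2 called 7 and limma 0). With the block 0 of the 26 were called, and the lowest adjusted p was 0.575 (*Serpina1c*, log2 fold change 0.86). A different OE effect in the D7 pair was examined in 16 of the 26 genes, since 10 had no read in the other 4 libraries. Of the 16, 0 were called, as were 0 of all genes (edgeR, 69 of all genes had an unadjusted p under 0.05). Some of the 16 had few reads there, such as *Apoc3* (2) and *Serpina1c* (4.75). Their log2 differences had SEs of 2.45 and 2.58, so even large differences could be missed.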

How the data were processed

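Messenger RNA of 6 ESC libraries (2 Con, 2 OE, 1 Con-D7 and 1 OE-D7) was analysed. The authors sequenced on BGISEQ-500, mapped reads to mm10 with Bowtie2 and deposited estimated counts from RSEM, not normalized, beside FPKM values with 2 decimals, normalized for length and depth. HISAT and GRCm38.p6 are given instead in the submitters' processing notes, and versions, read length and strandedness are not given in the sources used here. For Con-D7 and OE-D7 the header of the counts says average, though their values look like those of single libraries.

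The members and lists were chosen with earlier results of these data known. Estimated counts were rounded and tested with edgeR 4.0.16 in R 4.3.3 (TMM factors 0.944 to 1.05, quasi-likelihood F test, Benjamini-Hochberg adjusted p under 0.05) after a filter that kept a mean of at least 0.5 FPKM: OE with Con in 4 libraries, OE with Con in 6 libraries (D7 label as covariate), and D7 with the other 4 with genotype as a term. DESeq2 1.42.0 and limma 3.58.1, on log2(FPKM + 0.5), were alternatives, as were other filters, scales and leaving out each library. Ratios within the D7 pair used TMM-scaled counts with exact conditional (Clopper-Pearson) 95% intervals, from scipy 1.17.1. Pairing was checked on 12565 genes. Same-numbered Con and OE libraries deviated from their group means with correlations of 0.881, 0.756 and 0.889, and others at -0.03 or below. The numbers were taken to pair the samples. Deviations within a group cancel out, so the low values of the others follow in part from the high ones. The D7 label is shared by Con-D7 and OE-D7, so 0.889 cannot tell pairing from that label. Named in full were the 25 members with the highest mean D7 FPKM and *Afp*, *Alb*, *Ttr*, *Kap*, *Scgb1a1* and *Sftpc*, and of each other list at most 4 genes by mean D7 FPKM. Other list genes are named because they were called, a choice made after their values were seen. On simulated counts the 4-library fit recovered 62.1% of 4-fold and 4.5% of 2-fold changes, and with the block 98.5% and 91%. Some items of the lists are not reported here.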

Additional observations from a re-analysis of the deposited data

Results flagged for a closer look

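*Trf* and *Cyp2e1* were lower in OE than in Con in both pairs without the D7 label and higher in OE in the D7 pair. The log2 ratio of OE to Con was -0.30, -0.32 and 0.22 for *Trf*, and -0.71, -0.12 and 0.73 for *Cyp2e1*, in pairs 1, 2 and D7. Opposite directions in each pair, among 6 genes with at least 10 reads in every library, drew attention to them. The test of the difference in the 6-library fit gave log2 differences of 0.53 and 1.10 with an adjusted p of 1 for both (edgeR), so neither passed it.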

How the results depend on the processing

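For OE with Con in libraries 1 and 2, where edgeR without a block called 0 genes, the replicate block gave 120 called genes, DESeq2 gave 2, and, added after seeing the data, the block gave 34 with DESeq2 and 129 with limma. Leaving out each library gave 1 to 90, the highest without Con-2, with the lone library assumed to vary like the others. Over 6 libraries, 0 became 1 with the replicate block, 7 with DESeq2, 69 with the block in DESeq2 and 3 with the block in limma, and stayed at 0 without each library. D7 with the other 4 gave 1357 called genes, 2494 with DESeq2, and 0 to 2533 without each library (0 without OE-D7, 28 without Con-D7, 365 without OE-2, 429 without OE-1, 2533 without Con-2), and no replicate block could be fitted there, since the D7 pair is a number of its own. None of these settings called one of the 39 genes for OE against Con. The log2 fold changes without each library were -0.011 to 0.37 for *Ahsg* and -0.048 to 0.77 for *Rbp4*, so both changed sign. Genes past 2-fold in the D7 pair fell from 917 to 350 with at least 50 reads. The median log2 ratio of the 39 genes stayed above 0 on each scale. The *Alb* to *Afp* ratio in reads was 73.7 over both D7 libraries and 63.4 to 94.2 without each. *Afp*'s 9 and 18 reads and 1 library on each side of the D7 pair limit these ratios.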

Other observations

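Genes with at most 4 reads in the other 4 libraries together and at least 10 in each D7 library numbered 73. Of these, 12 were among the 39 genes, 8 were on another list and 53 were on none, 7 of them *Mup* genes. The highest of the 53 were chemokine genes and further *Mup* genes. *Ccl7* stood at 9.17 and 29.5 FPKM and *Ccl2* at 9.26 and 19.6 FPKM in Con-D7 and OE-D7, with 3 and 4 reads in the other 4 libraries together, and *Mup14* stood at 9.94 and 10.9 FPKM. The chemokines differed between the D7 libraries by more than *Mup14* did. Next by mean D7 FPKM were *Mup11*, *Gm21320*, *Mup17*, *H2-Q8*, *Sprr1a*, *Rhox4b*, *LOC100862180*, *Mup18*, *Mup12*, *Sprr2a3*, *Psmb8* and *Foxf1*. They are named by level alone and include genes of keratinising epithelium (*Sprr1a* and *Sprr2a3*), of antigen presentation (*H2-Q8* and *Psmb8*), of a homeobox cluster on the X chromosome (*Rhox4b*) and of mesenchyme (*Foxf1*).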
